A study of Sus scrofa with 12 samples.

Results

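The genes described here are the nuclear-encoded subunits of the mitochondrial respiratory chain and of ATP synthase, together with cytochrome c and factors that assemble the complexes. They were taken by symbol: a pattern of symbol stems (NDUF, SDH, UQCR, CYC1, CYCS, COX and ATP5) matched 77 of 30461 gene rows, and 17202 of those rows carry no symbol. The 77 comprised 29 subunits of complex I (7 core and 22 supernumerary), 3 of complex II, 7 of complex III with cytochrome c, 13 of complex IV and 16 of ATP synthase, and 9 assembly factors. Subunits such as UQCRC1, UQCRFS1 and SDHD had no row under their symbol and were not analysed here, nor were mitochondrially encoded subunits (0 symbols found). RNA was measured by bulk 3′ mRNA sequencing of pig (Sus scrofa) oviduct epithelial cells in 3 groups of 4 libraries. Fresh cells had been scraped from the oviduct and taken as single cells. The other groups were spheroids, cells gathered into 3-dimensional clusters in culture, formed either in DMEM/F12, a basal culture medium, or in a medium called Incubation Medium. No composition is given for either medium, and the library names carry FBS for the first and Diff for the second without explanation. Strain, age, time in culture and the number of animals are likewise not stated, so p-values measure the spread between these libraries, which may be partly technical.

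Oxidative phosphorylation couples the transfer of electrons to the pumping of protons across the inner mitochondrial membrane. Complexes I and II pass electrons from NADH and succinate to ubiquinone, complex III passes them on to cytochrome c, and complex IV reduces oxygen with them. ATP synthase lets the protons flow back and makes ATP. Most subunits are encoded in the nucleus, made in the cytosol and imported, and each complex is put together with dedicated assembly factors. In the oviduct, the epithelium holds multiciliated cells, whose beating cilia consume ATP, and secretory cells.

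Total counts ranged from 5045187 to 8603774 per library, and every fresh cell library was below every spheroid library. The 77 genes held 0.702 to 0.838% of the counts in fresh cells, 1.15 to 1.21% in DMEM/F12 spheroids and 1.22 to 1.42% in incubation medium spheroids. Cell type markers moved with the same comparisons. Of 15 multiciliated markers, 8 had rows, and their summed level went from 1210 to 1410 CPM (normalised counts on a common scale for all libraries) in fresh cells to 133 to 335 in DMEM/F12 and 136 to 239 in incubation medium. Of 14 proliferation markers, 10 had rows, with sums of 42.5 to 58 CPM, 349 to 403 and 373 to 583. Secretory markers (5 of 7) summed to 18900 to 30000, 984 to 2020 and 963 to 2010 CPM, most of it OVGP1 in fresh cells, with CRISP3 and OSTN at 0 in every library. Within that list MUC1 rose, from 144 to 179 CPM in fresh cells to 484 to 595 in DMEM/F12 and 458 to 508 in incubation medium. Epithelial markers (5 of 7) stayed abundant as a sum, at 3730 to 4370, 5960 to 7390 and 4140 to 6150 CPM, but did not move alike. CDH1, KRT18 and the abundant KRT8 row lay above fresh cells in both media. CLDN4 was at 1390 to 2050, 2440 to 3440 and 893 to 1070 CPM, and EPCAM at 777 to 1050, 513 to 804 and 596 to 929. Stromal and muscle markers (7 of 11) summed to 257 to 420, 1070 to 1220 and 233 to 544 CPM, most of it TAGLN, with DES at 0 in fresh cells. TAGLN was at 193 to 324, 1050 to 1190 and 225 to 529 CPM. The collagens went the other way: COL1A2 was at 8.7 to 28.2, 1.44 to 2.78 and 2.96 to 6.27 CPM, and COL3A1 at 14.2 to 31.4, 0.265 to 0.851 and 0.123 to 0.537. COL1A1 overlapped fresh cells in DMEM/F12 and lay below them in incubation medium. Leukocyte markers (6 of 9) summed to 1870 to 2180, 1520 to 1790 and 1970 to 2210 CPM, nearly all CD74, and PTPRC, which defines leukocytes, was at 5.74 to 8.53, 1.44 to 3.37 and 0.269 to 2.14 CPM. CORO1A, of the same list, was at 3.05 to 4.7, 12 to 19.9 and 3.36 to 5.47 CPM. Endothelial markers (4 of 6) summed to 39.7 to 55.8, 136 to 251 and 91.1 to 148 CPM, with VWF at 0 in fresh cells and in DMEM/F12. CDH5 and KDR rose in both media, whereas PECAM1 was lower, at 14.1 to 16.1, 6.48 to 8.83 and 7.14 to 8.81 CPM. The part that these cell types, depth or the cell cycle played in the values below was not tested, and in bulk libraries a change in the number of cells of a type cannot be told apart from a change in RNA per cell.

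Taken as a sum, RNA of these genes was highest in spheroids formed in incubation medium, lower in those formed in DMEM/F12 and lowest in fresh cells. The summed level of the 77 genes was 8061, 7313, 8265 and 7783 CPM in fresh cell replicates 1 to 4. It was 10930, 10930, 12150 and 11290 CPM in DMEM/F12 and 13210, 13980, 14470 and 12780 CPM in incubation medium. The 3 groups did not overlap. The means, 7856 ± 412, 11320 ± 577 and 13610 ± 760 CPM (SD, n = 4 each), gave ratios of 1.44 for DMEM/F12 and 1.73 for incubation medium over fresh cells, and 1.2 between the media. CPM here are scaled by TMM, which sets library sizes so that most genes do not shift, and were used mainly to compare libraries for the same gene or list. Levels of different genes were set against each other only in the paralog shares below and in choosing the most abundant genes of each class. The ratio over fresh cells was above the sum's for ATP synthase (1.53 and 1.81) and below it for complex II (1.16 and 1.33). For the 5 complex I assembly factors it was 0.962 in DMEM/F12 and 1.14 in incubation medium.

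**Figure D1:**
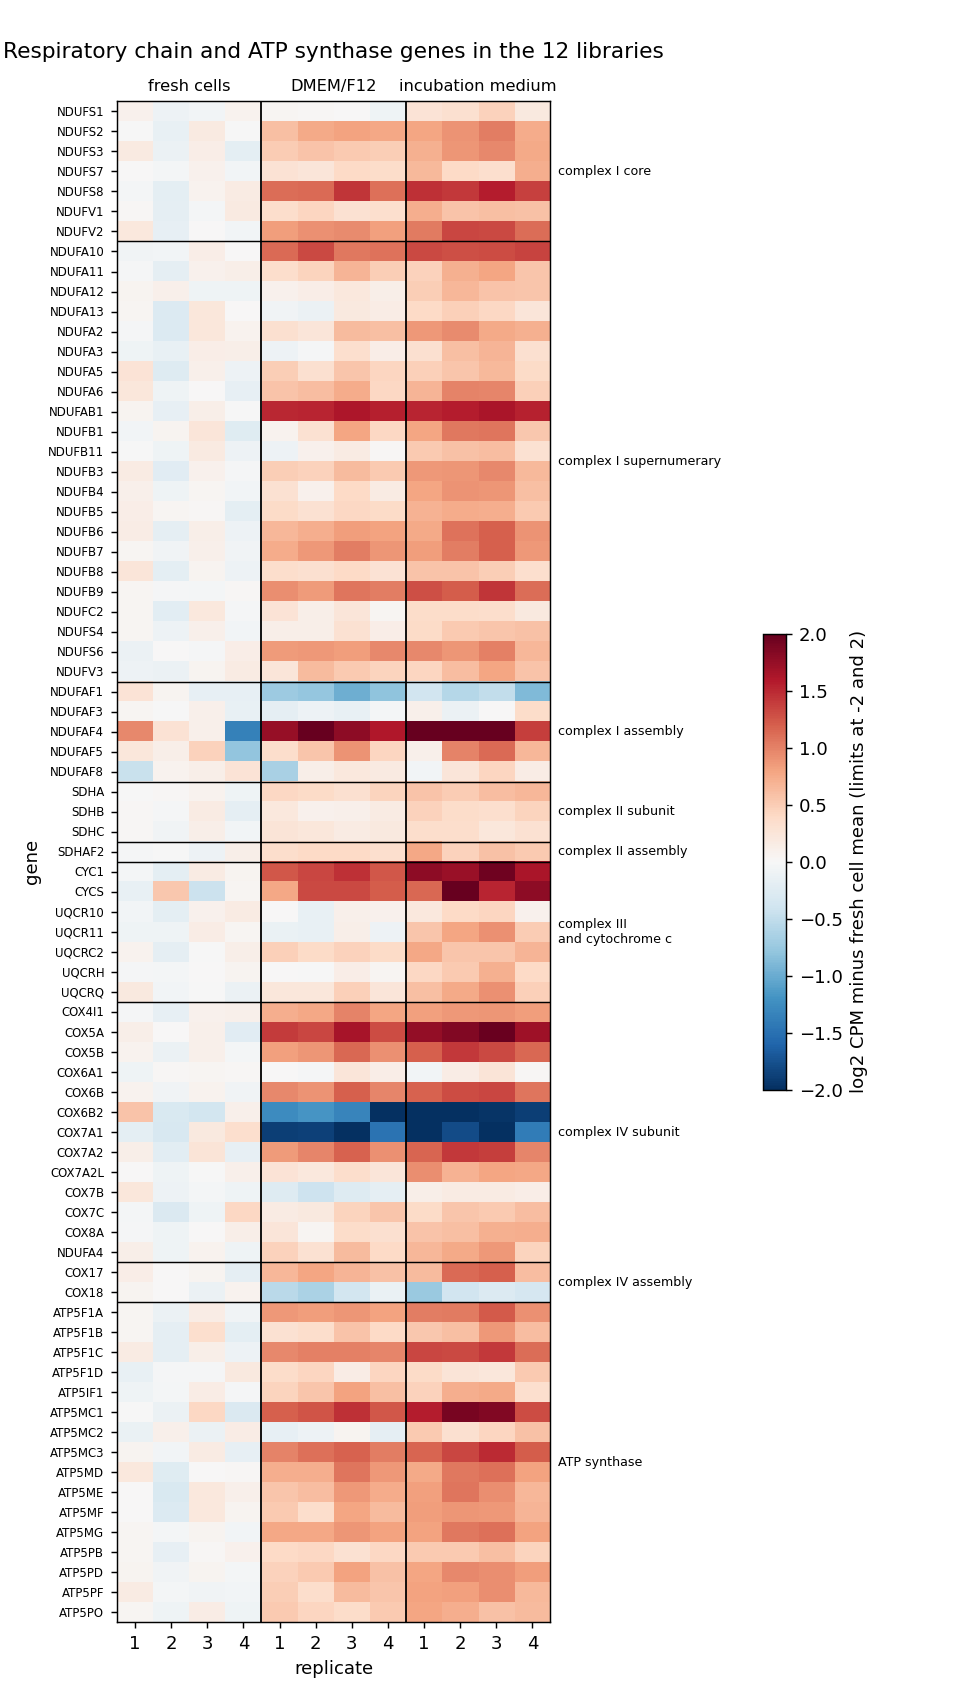
Heatmap of log2 CPM minus the fresh cell mean for the 76 tested genes (1 per line, ordered by complex) in the 12 libraries (columns, replicates 1 to 4 of each group), with the colour scale limited at -2 and 2. Most lines turn red in the 8 spheroid libraries and are deepest in incubation medium, while NDUFAF1, COX6B2, COX7A1 and COX18 turn blue.

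Of the 77 genes, 76 passed the filter on low counts; COX10, which makes a haem A precursor for complex IV, did not (0 to 1.26 CPM). In DMEM/F12 spheroids 55 of the 76 were called higher than in fresh cells and 5 lower (edgeR quasi-likelihood test, Benjamini-Hochberg adjusted p under 0.05), against 35.1% of all 14070 tested genes called higher and 35.7% lower. That is 72.4% of the genes higher. In incubation medium spheroids 68 were called higher and 4 lower, against 35.8% of all tested genes in each direction. That share was 89.5%. The median log2 fold change of the 76 genes was 0.44 in DMEM/F12 and 0.69 in incubation medium, and that of all tested genes was -0.01 in both. All 4 spheroid libraries lay above all 4 fresh cell libraries for 50 genes in DMEM/F12 (32.4% of all tested genes) and for 64 in incubation medium (32.4%). They lay below for 5 (32.9%) and 4 (32.5%). Called rises reached 2-fold for 10 genes in DMEM/F12 and 16 in incubation medium, against 2118 and 2152 of all 14070 tested genes. In DMEM/F12 rises of that size were thus no more frequent than among all tested genes. Called falls reached 2-fold for COX6B2 and COX7A1 in both media, against 2858 and 3031 of all tested genes. COX6B2 passed the filter on low counts only through its fresh cell libraries, and NDUFAF4, among the 2-fold rises, only with its spheroid libraries. Most of the rises were modest. The fresh cell libraries are common to both comparisons, which are therefore not independent.

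**Figure D2:**
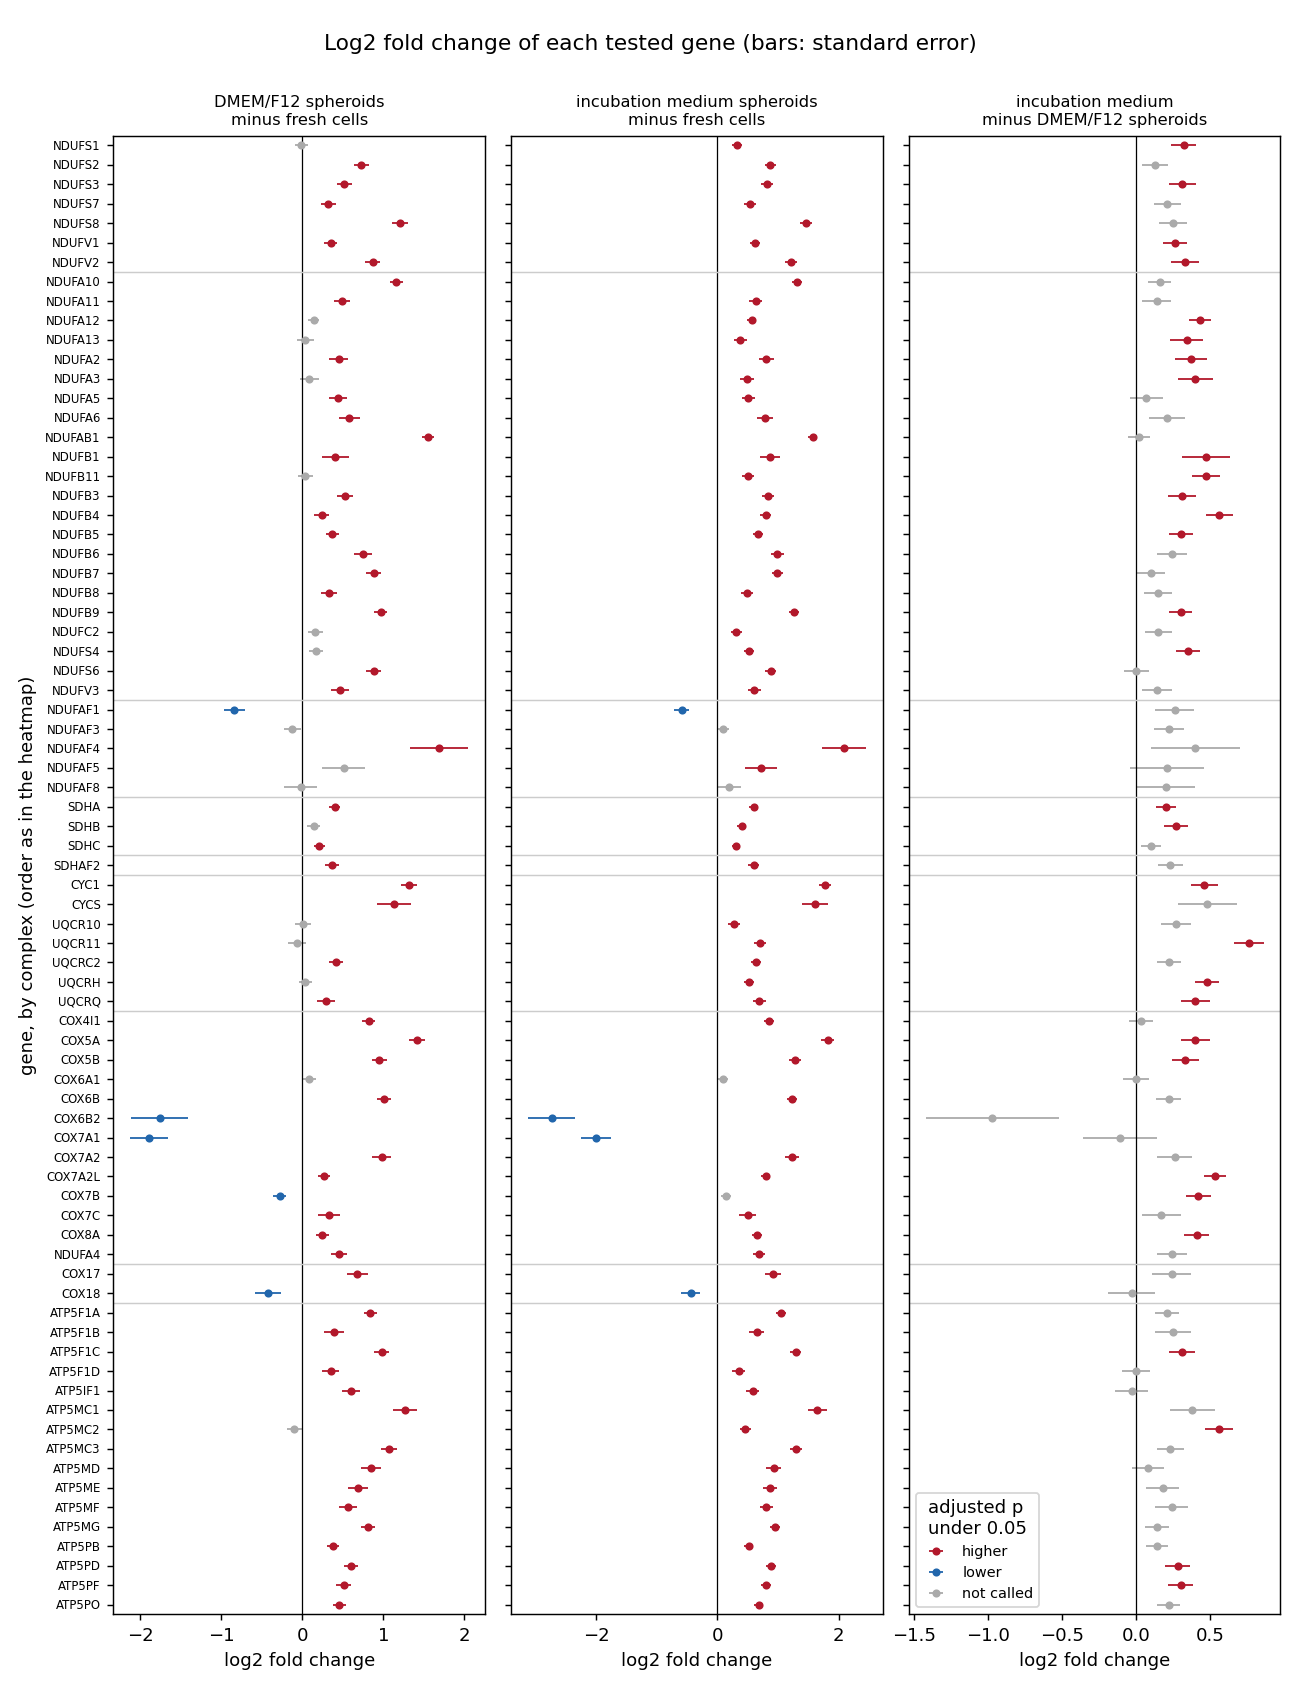
Log2 fold change of each of the 76 tested genes (points, bars are standard errors) in the 3 comparisons, coloured by whether the adjusted p was under 0.05. The median point is at 0.44 (DMEM/F12 against fresh cells), 0.69 (incubation medium against fresh cells) and 0.24 (incubation medium against DMEM/F12); the horizontal scales of the 3 panels differ.

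The catalytic core of complex I takes electrons from NADH at a flavin and carries them along iron-sulphur clusters to ubiquinone. Of its 7 core genes, 6 rose in DMEM/F12 and 7 in incubation medium, with median log2 fold changes of 0.52 and 0.82. These are 85.7 and 100%, against 35.1 and 35.8% of all tested genes. NDUFS8 (ENSSSCG00025077602), an iron-sulphur subunit near the ubiquinone site, rose most. It was at 28.2, 25.1, 30.3 and 32.3 CPM in fresh cells, 63.3, 63.8, 77.9 and 62.4 in DMEM/F12, and 79.7, 77.4, 85.9 and 75 in incubation medium. No spheroid library reached down to a fresh cell library, and log2 fold changes were 1.21 (SE 0.10, adjusted p = 1.04e-07) and 1.46 (SE 0.10, adjusted p = 1.64e-08). NDUFV2, an iron-sulphur subunit of the NADH-oxidising tip, averaged 64.6 ± 7.31, 118 ± 4.97 and 149 ± 15.3 CPM (SD, n = 4) in the 3 groups and rose by 0.87 and 1.21 on the log2 scale; its counts were not whole numbers in 11 libraries, so some of its reads had been shared with other features. NDUFS7, which carries the last cluster before ubiquinone, rose by 0.32 and 0.54, with counts that were not whole in 10 libraries. NDUFS1, which holds several clusters of the chain, was the exception in DMEM/F12. Its levels were 41.1, 35.9, 37.2 and 40.8 CPM in fresh cells, 39.7, 39.4, 39 and 36.3 in DMEM/F12, and 47, 48.3, 53.4 and 44.2 in incubation medium. The first 2 groups overlapped (log2 fold change -0.01, SE 0.084, adjusted p = 0.956), and incubation medium lay above both (0.32, SE 0.083, adjusted p = 0.00344 against fresh cells).

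The supernumerary subunits surround this core and stabilise it. Of the 22 genes, 16 rose in DMEM/F12 and all 22 rose in incubation medium, and none fell in either. The shares higher were 72.7 and 100%, against 35.1 and 35.8% of all tested genes. NDUFAB1 (ENSSSCG00025046750), the mitochondrial acyl carrier protein, which also serves fatty acid synthesis, had the largest rise of the subunits in DMEM/F12. Its levels were 58.8, 50.2, 61.3 and 55.9 CPM in fresh cells, 160, 162, 174 and 166 in DMEM/F12, and 162, 167, 175 and 165 in incubation medium. Both spheroid groups lay far above fresh cells and overlapped each other, with log2 fold changes of 1.55 (SE 0.077, adjusted p = 8.95e-10), 1.57 (SE 0.077, adjusted p = 7.6e-10) and 0.02 between the media (adjusted p = 0.895). NDUFA10 rose by 1.16 and 1.32, NDUFB9 by 0.97 and 1.27, and NDUFB8 by 0.33 and 0.49. NDUFC2, a subunit of the membrane arm, averaged 183, 205 and 228 CPM and was called only for incubation medium against fresh cells (0.31, adjusted p = 0.00712), though without fresh cell replicate 3 the DMEM/F12 difference passed as well (0.24, adjusted p = 0.0327). NDUFB4 rose in both (0.24, adjusted p = 0.0302, and 0.80, adjusted p = 2.54e-06). Its first call was lost on leaving out fresh cell replicate 2 or 4 or DMEM/F12 replicate 1 or 3 (log2 fold change 0.20 to 0.23, adjusted p 0.0544 to 0.0809). The remaining supernumerary genes that were not called in DMEM/F12 were NDUFA12, NDUFA13, NDUFA3, NDUFB11 and NDUFS4, at 0.04 to 0.17 on the log2 scale.

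The assembly factors of complex I did not move as 1 group. Of 5 genes, NDUFAF4 rose in both media, NDUFAF1 fell in both, NDUFAF5 was called higher than in fresh cells only for incubation medium (0.72, adjusted p = 0.0256), and NDUFAF3 and NDUFAF8 were not called. The shares higher, 20 and 40%, were below and near the 35.1 and 35.8% of all tested genes. The factors NDUFAF3 and NDUFAF4 work together on the ubiquinone-binding module. NDUFAF4 (ENSSSCG00025072636) was at 6.96, 4.3, 3.74 and 1.18 CPM in fresh cells, 12.2, 17.3, 12.6 and 11 in DMEM/F12, and 18, 19.4, 23 and 9.4 in incubation medium. Every spheroid library exceeded every fresh cell library, although the gene is scarce and its coefficient of variation in fresh cells, 58.7%, was the largest of the 76 genes in that group. The log2 fold changes were 1.69 (SE 0.36, adjusted p = 0.000743) and 2.09 (SE 0.36, adjusted p = 0.00011). NDUFAF4 passed the filter on low counts only with its spheroid libraries. A call of higher in spheroids was thereby favoured in advance, so these p-values are no support for the rise. NDUFAF3 averaged 41.7, 38.4 and 44.6 CPM, and its log2 differences were -0.12 and 0.10. NDUFAF1 (ENSSSCG00025015108), which acts in the assembly of the membrane arm, was at 32.2, 27.4, 23.6 and 23.5 CPM in fresh cells, 15.8, 15.3, 13.4 and 15 in DMEM/F12, and 20.3, 17.8, 18.8 and 14.2 in incubation medium. Its groups did not overlap with fresh cells, and it fell by 0.84 (SE 0.13, adjusted p = 5.69e-05) and fell by 0.59 (SE 0.13, adjusted p = 0.00116) on the log2 scale. For NDUFAF5, which modifies NDUFS7, the DMEM/F12 difference (0.51, adjusted p = 0.103) was called with the replicate number as a block (0.52, adjusted p = 0.0349).

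Complex II oxidises succinate and is also an enzyme of the tricarboxylic acid cycle. Its changes were the smallest of the 5 complexes by ratio of sums. SDHA (ENSSSCG00025031010), the flavin subunit, was at 58.8, 60.1, 62.1 and 55.3 CPM in fresh cells, 79.1, 77.4, 73.6 and 80.8 in DMEM/F12, and 88.2, 84.4, 91.1 and 93.6 in incubation medium. The 3 groups were fully separated, with rises of 0.40 and 0.60 on the log2 scale (adjusted p = 0.00017 and 3.36e-06). SDHC, a membrane anchor, rose by 0.21 and 0.31. SDHB, the iron-sulphur subunit, averaged 159 ± 15.6, 174 ± 6.45 and 210 ± 9.41 CPM (SD, n = 4). It rose in incubation medium (0.40, adjusted p = 0.000396); the DMEM/F12 difference of 0.14 (adjusted p = 0.14) passed the threshold without fresh cell replicate 3 (0.20, adjusted p = 0.0403). SDHAF2, which attaches the flavin to SDHA, rose by 0.37 and 0.60.

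Complex III and its mobile electron carrier cytochrome c had the widest gap between the media, with sums of 621.4 ± 15.5, 873.3 ± 55.6 and 1187 ± 90.6 CPM (SD, n = 4) and a ratio of 1.36 between incubation medium and DMEM/F12. Of the 7 genes, 4 rose in DMEM/F12 and 7 in incubation medium (57.1 and 100%, against 35.1 and 35.8% of all tested genes). CYC1 (ENSSSCG00025063286) encodes cytochrome c1, the haem subunit that hands electrons to cytochrome c. Its levels were 84.2, 75.5, 97.4 and 90.2 CPM in fresh cells, 204, 219, 237 and 205 in DMEM/F12, and 300, 286, 333 and 270 in incubation medium. The groups were separate at each step, with rises of 1.32 (SE 0.096, adjusted p = 2.73e-08) and 1.78 (SE 0.097, adjusted p = 1.91e-09). CYCS, cytochrome c itself, which is released from mitochondria in apoptosis, varied more, at 53.8, 87.3, 44.3 and 61.7 CPM in fresh cells, 103, 150, 149 and 139 in DMEM/F12, and 133, 242, 173 and 208 in incubation medium. It rose by 1.13 (SE 0.21, adjusted p = 0.000247) and 1.61 (SE 0.21, adjusted p = 9.24e-06). Its counts were not whole in 10 of 12 libraries, as was the case for UQCR11 and UQCRH, so the level of these genes depends on how shared reads were divided. UQCRC2, a core protein of the matrix side, rose by 0.42 and 0.64, and UQCRQ, a small subunit, by 0.29 and 0.69.

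The remaining small subunits of complex III did not differ between DMEM/F12 and fresh cells beyond the replicate spread. UQCR11 (ENSSSCG00025016932) was at 71.2, 71, 83.8 and 78 CPM in fresh cells, 69.5, 68.5, 82.6 and 70.7 in DMEM/F12, and 112, 131, 144 and 107 in incubation medium. The first 2 groups overlapped and the third lay above both, with log2 differences of -0.06 (SE 0.11, adjusted p = 0.613), 0.70 (SE 0.10, adjusted p = 3.19e-05) and 0.76 between the media (SE 0.10, adjusted p = 0.000139). The first of these values was 0.01 when scaled by library totals. UQCRH, the hinge protein near cytochrome c1, was at 132, 130, 134 and 138 CPM, then 134, 132, 146 and 137, then 178, 192, 219 and 176. It had the same order of groups, with log2 differences of 0.04 (adjusted p = 0.669), 0.52 (adjusted p = 4.44e-05) and 0.48 (adjusted p = 0.000639). UQCR10 averaged 88.1, 88.7 and 107 CPM and rose in incubation medium by 0.28 (adjusted p = 0.0215), with overlapping libraries.

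Complex IV held some of the largest rises and all 3 of the subunits that fell. Of its 13 genes, 9 rose and 3 fell in DMEM/F12, and 9 rose and 2 fell in incubation medium. The share higher was 69.2% in each, against 35.1 and 35.8% of all tested genes, of which 35.7 and 35.8% were lower. COX5A (ENSSSCG00025063354), a subunit of the matrix side, rose most. It was at 125, 116, 123 and 97.8 CPM in fresh cells, 304, 291, 360 and 285 in DMEM/F12, and 392, 416, 455 and 373 in incubation medium. All 3 groups were separate, with rises of 1.42 (SE 0.10, adjusted p = 2.73e-08) and 1.82 (SE 0.11, adjusted p = 3.09e-09). COX5B rose by 0.95 and 1.28, the COX6B row by 1.01 and 1.23, and COX4I1, which is needed for an early step of assembly, by 0.82 and 0.85. NDUFA4, named for complex I but a subunit of complex IV, rose by 0.45 and 0.69, COX8A by 0.25 and 0.65, and COX7C by 0.33 and 0.50. The DMEM/F12 call of COX7C (adjusted p = 0.0431) was lost without fresh cell replicate 1, 2 or 3 or DMEM/F12 replicate 3 or 4 (adjusted p 0.0784 to 0.13). COX6A1, the ubiquitous form of its subunit, averaged 278 ± 10.7, 296 ± 25.8 and 296 ± 28.3 CPM (SD, n = 4) and was called in no comparison, with log2 differences of 0.09 (SE 0.086) from fresh cells in both media.

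Paralogs of the complex IV subunit 7A moved in opposite directions. COX7A1 is the form of subunit 7A known from heart and skeletal muscle and COX7A2 the form of most other tissues. COX7A1 (ENSSSCG00025060856) was at 33.1, 30.3, 43.6 and 48.2 CPM in fresh cells, 10.1, 10.2, 7.81 and 13.6 in DMEM/F12, and 7.28, 10.8, 6.65 and 14.2 in incubation medium. Every spheroid library was below every fresh cell library, and the gene fell by 1.89 (SE 0.23, adjusted p = 4.98e-06) and fell by 2.00 (SE 0.24, adjusted p = 3.1e-06) on the log2 scale. COX7A2 (ENSSSCG00025018366) was at 113, 90.6, 124 and 93.3 CPM, then 189, 205, 236 and 198, then 233, 279, 272 and 206. It rose by 0.98 (SE 0.12, adjusted p = 6.76e-06) and 1.23 (SE 0.12, adjusted p = 6.56e-07), so the sum of the pair shifted towards COX7A2. COX7A1 made up 27% ± 4.96 of their summed level in fresh cells (SD, n = 4; 22.7 to 34.1%), 4.86% ± 1.33 in DMEM/F12 and 3.91% ± 1.8 in incubation medium. Of the smooth muscle markers in DMEM/F12, CNN1 fell (log2 fold change -2.59, adjusted p = 0.000281), ACTA2 was not called (-0.27, adjusted p = 0.546) and TAGLN rose by 2.08. DES was at 0 in fresh cells. In incubation medium CNN1 was at 0.358 to 1.61 CPM (fresh cells 2.16 to 8.88). There ACTA2, at 1.35 to 1.87 CPM (fresh cells 0.348 to 2.35), and TAGLN, at 225 to 529 (fresh cells 193 to 324), overlapped fresh cells. CNN1 passed the filter on low counts only through fresh cells. The part of these markers in the COX7A1 values was not tested.

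The relative COX7A2L, which joins complexes III and IV in supercomplexes, rose in both media. It was at 223, 211, 221 and 238 CPM in fresh cells, 269, 259, 286 and 264 in DMEM/F12, and 426, 363, 386 and 381 in incubation medium. These groups were fully separated, with changes of 0.27 (SE 0.074, adjusted p = 0.00454) and 0.80 (SE 0.074, adjusted p = 2.86e-07). COX6B2, the form of subunit 6B known from testis, was near the detection limit. It had 24, 12, 11 and 15 counts in fresh cells, 8, 9, 7 and 3 in DMEM/F12, and 3, 2, 4 and 4 in incubation medium. The groups of spheroids lay below fresh cells, by 3.45-fold (exact conditional 95% interval 2.16 to 5.64, counting error only) and 6.89-fold (3.75 to 13.7) from pooled counts, with adjusted p = 0.000396 and 2.17e-05 in edgeR. COX6B2 passed the filter on low counts only through fresh cells. A call of lower in spheroids was thereby favoured in advance, so these p-values are no support for the fall. Its share of the summed level with the COX6B row was 2.12% ± 0.663 in fresh cells (SD, n = 4), 0.315% ± 0.126 in DMEM/F12 and 0.137% ± 0.0477 in incubation medium. COX7B (ENSSSCG00025003656) fell in DMEM/F12 and not in incubation medium. It was at 200, 161, 166 and 161 CPM in fresh cells, 143, 128, 144 and 151 in DMEM/F12, and 186, 191, 192 and 187 in incubation medium. The DMEM/F12 libraries were below both other groups, with changes of -0.28 (SE 0.084, adjusted p = 0.00824) against fresh cells and 0.42 for incubation medium over DMEM/F12 (SE 0.084, adjusted p = 0.0024). The difference of incubation medium from fresh cells, 0.14 (adjusted p = 0.161), passed the threshold without fresh cell replicate 1 (0.22, adjusted p = 0.0203), and the fall in DMEM/F12 did not pass when no filter on low counts was used (-0.21, adjusted p = 0.0751).

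**Figure D3:**
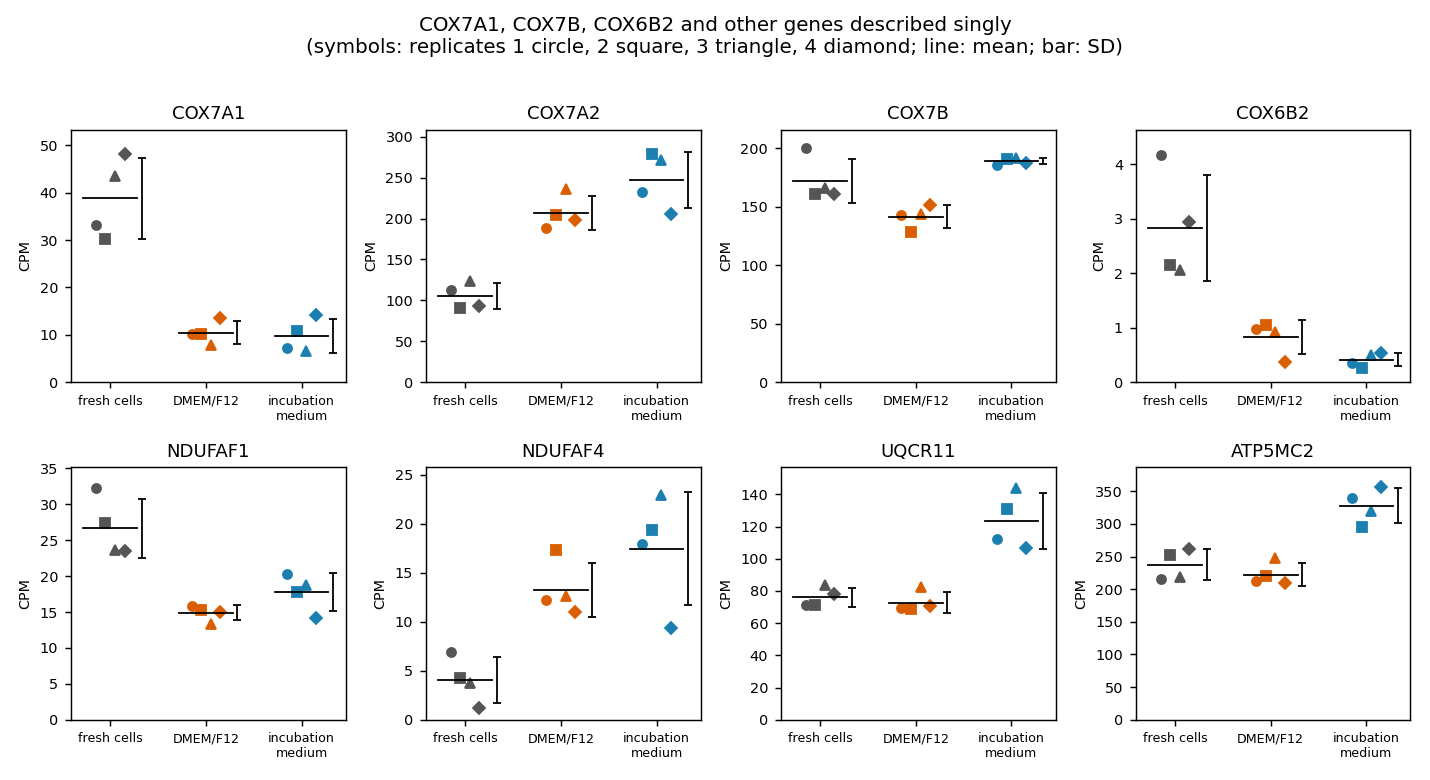
CPM in each library (symbols mark replicates 1 to 4), with the group mean (line) and SD (bar, n = 4), for 8 genes of complexes I, III and IV and ATP synthase; the vertical axes start at 0 and differ in scale. COX7A1, COX6B2 and NDUFAF1 are highest in fresh cells, COX7B is lowest in DMEM/F12, and UQCR11 and ATP5MC2 are highest in incubation medium, at 123 and 328 CPM on average against 76 and 238 in fresh cells.

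Of the complex IV assembly factors, COX17, which delivers copper, averaged 38.1 ± 3.51, 61.1 ± 3.55 and 72.3 ± 15.7 CPM (SD, n = 4) and rose by 0.68 and 0.92 (adjusted p = 0.000393 and 2.48e-05). COX18, which inserts a mitochondrially encoded subunit into the membrane, was at 8.88, 8.61, 7.85 and 9.02 CPM in fresh cells, 5.84, 5.46, 6.62 and 7.8 in DMEM/F12, and 5.01, 6.54, 7.02 and 6.72 in incubation medium. The spheroid libraries lay just below those of fresh cells, and the gene fell by 0.42 (adjusted p = 0.0322) and fell by 0.44 (adjusted p = 0.0245) on the log2 scale. Neither call was firm: the first was lost without fresh cell replicate 1, 2 or 4 or DMEM/F12 replicate 1, 2 or 3 (adjusted p 0.0563 to 0.109), and the second without fresh cell replicate 1 or 4 or incubation medium replicate 1 (adjusted p 0.0552 to 0.0926).

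ATP synthase has a catalytic head in the matrix, a stalk and a rotating ring of c subunits in the membrane. Of its 16 genes, 15 rose in DMEM/F12 and 16 in incubation medium, with median log2 fold changes of 0.60 and 0.84. That is 93.8 and 100%, against 35.1 and 35.8% of all tested genes. ATP5F1A (ENSSSCG00025050081), the alpha subunit of the head, was at 268, 241, 291 and 251 CPM in fresh cells, 477, 468, 483 and 457 in DMEM/F12, and 533, 538, 612 and 496 in incubation medium. The groups were separate, with rises of 0.84 (SE 0.083, adjusted p = 5.4e-07) and 1.05 (SE 0.083, adjusted p = 6.15e-08). The catalytic beta subunit ATP5F1B rose by 0.39 and 0.65, the gamma subunit of the central stalk ATP5F1C by 0.98 and 1.29, and ATP5PO, which links head and outer stalk, by 0.46 and 0.68. The other stalk and membrane subunits (ATP5F1D, ATP5MD, ATP5ME, ATP5MF, ATP5MG, ATP5PB, ATP5PD and ATP5PF) rose by 0.35 to 0.85 in DMEM/F12 and by 0.35 to 0.95 in incubation medium. ATP5IF1 encodes a protein that inhibits the enzyme when it would run in reverse. It rose in both media, from 85.8 ± 6.45 CPM to 130 ± 13.8 and 128 ± 17.6 (SD, n = 4), or 0.60 (adjusted p = 0.000173) and 0.58 (adjusted p = 0.000252).

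The c subunit of the rotor is encoded by 3 genes, ATP5MC1, ATP5MC2 and ATP5MC3, whose products differ in the import sequence that is cut off and not in the mature protein. ATP5MC1 (ENSSSCG00025005824) was at 70, 64.4, 93.1 and 57.6 CPM in fresh cells, 161, 169, 193 and 166 in DMEM/F12, and 209, 261, 254 and 173 in incubation medium. It rose by 1.27 (SE 0.15, adjusted p = 3.88e-06) and 1.65 (SE 0.15, adjusted p = 2.86e-07), and ATP5MC3 by 1.07 and 1.30. ATP5MC2 (ENSSSCG00025041224) was at 215, 253, 219 and 262 CPM, then 212, 220, 247 and 210, then 339, 295, 320 and 357. Its fresh cell and DMEM/F12 libraries overlapped (-0.10, SE 0.092, adjusted p = 0.357), and it rose in incubation medium (0.46, SE 0.092, adjusted p = 0.000384). The share of ATP5MC2 in the summed level of the 3 genes was 47.3% ± 5.46 in fresh cells (SD, n = 4; 41.4 to 53.3%), 27.7% ± 0.435 in DMEM/F12 and 32% ± 4.07 in incubation medium. Counts of the 3 genes were not whole in 4 to 8 libraries, so reads shared between them could shift these shares.

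The direct comparison of the media asked which genes differ between spheroids formed in one or the other. Of the 76 genes, 30 were higher in incubation medium and 0 lower (edgeR, adjusted p under 0.05), against 12.7% and 12.3% of all tested genes; DESeq2 called 32 higher and 0 lower, and at an unadjusted p under 0.05 only COX6B2 was lower. The share called higher was 39.5%, the median log2 difference was 0.24, and no difference reached 2-fold. The 4 incubation medium libraries lay above the 4 DMEM/F12 libraries for 32 genes (13.9% of all tested genes) and below them for 0 (13%). By complex, 15 of 29 complex I subunits, 2 of 3 of complex II, 4 of 7 of complex III with cytochrome c, 5 of 13 of complex IV and 4 of 16 of ATP synthase were called, and 0 of 8 assembly factors. The count was 18 without incubation medium replicate 2 and 13 with library totals in place of TMM, where the median was 0.15. Among the calls lost on leaving out single libraries were NDUFV2 (DMEM/F12 replicate 4 or incubation medium replicate 2 or 3) and SDHB (DMEM/F12 replicate 2, 3 or 4 or incubation medium replicate 1 or 4).

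Among the called genes, the largest differences between the media were in UQCR11 (0.76) and ATP5MC2 (0.56), given above, and NDUFB4. NDUFB4, a subunit of the membrane arm of complex I, was at 149, 128, 158 and 134 CPM in DMEM/F12 and 208, 225, 220 and 182 in incubation medium. The groups were separate, with a log2 difference of 0.56 (SE 0.091, adjusted p = 0.000558). COX7A2L differed by 0.53 (adjusted p = 0.000166), UQCRH by 0.48 (adjusted p = 0.000639) and CYC1 by 0.46 (adjusted p = 0.00248). Genes that had risen strongly from fresh cells could be level between the media, as NDUFAB1 (0.02), COX4I1 (0.03) and ATP5IF1 (-0.03) were. Same-numbered libraries of the media deviated together (correlations of 0.39 to 0.52), and with the replicate number as a block 43 genes were called higher, against 16.6% of all tested genes. The 13 added were NDUFS8 (adjusted p = 0.0246), CYCS (0.00826), UQCR10 (0.036), UQCRC2 (0.0324), COX6B (0.0402), COX7A2 (0.0468), NDUFA4 (0.0378), ATP5F1A (0.0399), ATP5F1B (0.0247), ATP5MC1 (0.00994), ATP5MC3 (0.028), ATP5MF (0.044) and ATP5PO (0.0463).

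Put together gene by gene, 19 genes were called higher in all 3 comparisons, and 36 were higher in both media than in fresh cells without a called difference between the media. A further 10 were called only in the 2 comparisons that involve incubation medium: NDUFS1, NDUFA12, NDUFA13, NDUFA3, NDUFB11, NDUFS4, SDHB, UQCR11, UQCRH and ATP5MC2. NDUFC2, NDUFAF5 and UQCR10 were called only for incubation medium against fresh cells, NDUFAF1, COX6B2, COX7A1 and COX18 were lower in both media, COX7B had its own pattern, and NDUFAF3, NDUFAF8 and COX6A1 were never called. How often all tested genes show these joint patterns was not counted, and the comparisons share libraries. The counts by pattern therefore only sort these genes and do not set them apart from others. In 21 of the 76 genes every fresh cell library was below every DMEM/F12 library and every DMEM/F12 library below every incubation medium library, an order found in 4.24% of all tested genes. These 21 came from all complexes and included NDUFS3, NDUFV1, SDHA, CYC1, UQCRC2, COX5A, COX5B, ATP5F1A and ATP5F1C.

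Within a group the genes also varied together, by replicate. Their median coefficient of variation was 9.47% in fresh cells, 8.02% in DMEM/F12 and 9.22% in incubation medium, below the 14, 13 and 14.1% of all tested genes. These values were not matched for abundance, and all tested genes include many scarce ones, whose counts are less precise. Replicate 3 held the highest value of its group for 31 of the 76 genes in fresh cells, 52 in DMEM/F12 and 41 in incubation medium, where it did so for 22.7, 31.7 and 24.9% of all tested genes. It was highest in all 3 groups for 15 genes (19.7%, against 4.04% of all tested genes). Lowest values gathered in fresh cell replicate 2 (40 of the 76 genes, against 23.4% of all tested genes) and incubation medium replicate 4 (37 of the 76, against 26.1%). These deviations were small: the median gene deviated from its group mean by 0.09, 0.10 and 0.12 on the log2 scale in replicate 3 and by -0.09 and -0.11 in those 2 libraries. Replicate 3 also had the lowest FOXJ1, a regulator of motile cilia, in DMEM/F12 (54.8 CPM, others 74.8 to 133) and in incubation medium (51.2, others 65 to 82.1), but not in fresh cells (455, others 440 to 471). Among the other multiciliated markers, CAPS, DNAI2, TEKT1 and TPPP3 were also lowest in replicate 3 of both media. CFAP52 was not in DMEM/F12 (4.63 CPM, 3.95 in replicate 2). In incubation medium CCDC39 (4.43, 3.49 in replicate 4) and SPAG6 (17.7, 12.5 in replicate 4) were not. The part of ciliated cells in these deviations was not tested. Without replicate 3 of every group 51 genes were called higher in DMEM/F12, 67 in incubation medium and 21 between the media.

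**Figure D4:**
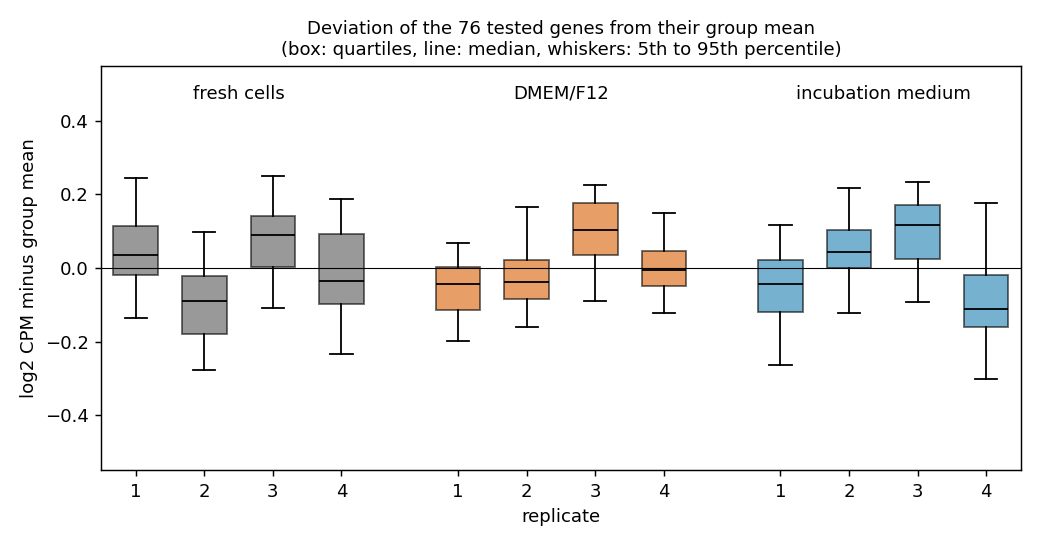
Deviation of log2 CPM from the group mean for the 76 tested genes in each of the 12 libraries (box: quartiles, line: median, whiskers: 5th to 95th percentile). The median lies highest in replicate 3 of all 3 groups (0.09, 0.10 and 0.12) and lowest in fresh cell replicate 2 and incubation medium replicate 4.

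Other genes of the same organelle were followed in 4 lists. Of 19 tested assembly factors outside the symbol pattern, 8 rose and 3 fell in DMEM/F12, and 10 rose and 2 fell in incubation medium. The shares higher, 42.1 and 52.6%, stand against 35.1 and 35.8% of all tested genes, and the first is near that background. UQCC2, which assembles complex III, rose by 0.92 and 1.32, BCS1L, which inserts its iron-sulphur protein, by 0.62 and 1.28, and CMC2, a complex IV factor, by 1.57 and 1.68. LYRM7, another complex III factor, fell by 0.31 and fell by 0.48, and TMEM242, a factor for ATP synthase, fell by 0.43 and fell by 0.54. Of 12 genes of the tricarboxylic acid cycle and pyruvate dehydrogenase, 9 rose and 1 fell in each medium (75% higher, against 35.1 and 35.8% of all tested genes), and 5 were higher in incubation medium than in DMEM/F12 (41.7%, against 12.7%). DLST (1.21 and 1.03), IDH2 (0.90 and 1.14) and PDHA1 (0.56 and 0.84) rose. OGDH, which works in 1 enzyme complex with DLST, was at 242, 175, 219 and 193 CPM in fresh cells, 125, 116, 102 and 134 in DMEM/F12, and 115, 104, 109 and 134 in incubation medium. Its spheroid libraries were all below fresh cells, and it fell by 0.80 (SE 0.12, adjusted p = 2.82e-05) and fell by 0.84 (SE 0.12, adjusted p = 1.68e-05).

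Among 13 genes of cristae, ATP and phosphate exchange and the outer membrane pore, 9 rose and 1 fell in DMEM/F12, 11 rose in incubation medium and 8 were higher in incubation medium than in DMEM/F12. The shares higher were 69.2, 84.6 and 61.5%, against 35.1, 35.8 and 12.7% of all tested genes. The ADP/ATP carrier exchanges the nucleotides across the inner membrane, and its 3 genes did not move alike. SLC25A5, the form of proliferating cells, was at 87, 72.8, 79.3 and 66.6 CPM in fresh cells, 178, 165, 182 and 156 in DMEM/F12, and 253, 247, 280 and 219 in incubation medium. The groups were separate, with rises of 1.16 (SE 0.10, adjusted p = 1.52e-07) and 1.71 (SE 0.10, adjusted p = 4e-09). SLC25A6 rose by 0.94 and 1.41. SLC25A4, the form of heart and skeletal muscle, fell by 0.41 in DMEM/F12 (adjusted p = 0.00223) and differed by -0.22 in incubation medium (adjusted p = 0.0655). SLC25A3, the phosphate carrier, rose by 0.48 and 0.83, VDAC1, the outer membrane pore, by 0.94 and 1.17, and OPA1, which shapes cristae, by 0.72 and 0.90.

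Transcription factors and coactivators known to drive nuclear genes of mitochondria did not share 1 direction. Of 11 tested regulators, 5 rose and 4 fell in DMEM/F12, 6 rose and 2 fell in incubation medium, and 4 were higher in incubation medium than in DMEM/F12. The shares higher were 45.5, 54.5 and 36.4%, against 35.1, 35.8 and 12.7% of all tested genes, so the DMEM/F12 counts lie near the background. ESRRA (ENSSSCG00025053567), a nuclear receptor that binds promoters of oxidative phosphorylation genes, was at 14.8, 17.9, 14.6 and 16.7 CPM in fresh cells, 56.2, 45.3, 48.2 and 49.1 in DMEM/F12, and 103, 92.8, 84.3 and 110 in incubation medium. It separated all 3 groups, rising by 1.63 (SE 0.11, adjusted p = 1.66e-08) and 2.61 (SE 0.11, adjusted p = 2.38e-10), and by 0.97 between the media (adjusted p = 1.6e-05). Its relative ESRRG had 103 counts over the 4 fresh cell libraries, 4 over those of DMEM/F12 (1 in each) and 11 over those of incubation medium. The pooled level was 38.7-fold lower in DMEM/F12 (exact conditional 95% interval 14.7 to 145, counting error only) and 13.5-fold lower in incubation medium (7.25 to 27.9), with adjusted p = 2.94e-08 and 1.4e-07 in edgeR. ESRRG passed the filter on low counts only through fresh cells, so calls of lower in spheroids were favoured in advance.

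PPARGC1A (ENSSSCG00025001923), the coactivator of both receptors, was at 18.1, 19.5, 19.8 and 14.7 CPM in fresh cells, 11.8, 6.27, 6.22 and 9.13 in DMEM/F12, and 19, 16.3, 11.1 and 19.6 in incubation medium. It was lowest in DMEM/F12, where it fell by 1.11 (SE 0.22, adjusted p = 0.000462); incubation medium overlapped fresh cells (-0.13, adjusted p = 0.592) and exceeded DMEM/F12 by 0.98 (adjusted p = 0.00497). NRF1, a factor that binds many promoters of respiratory chain genes, fell in both media (log2 fold changes -0.47 and -0.45, adjusted p = 0.000695 and 0.000956). Of the regulators of the mitochondrial genome itself, TFB1M rose by 1.08 and 1.29 and TFB2M by 0.76 and 1.20. TFAM, which packages that genome, differed by -0.03 in DMEM/F12 (adjusted p = 0.719) and rose by 0.23 in incubation medium (adjusted p = 0.0179). No relation between a regulator and the respiratory chain genes was tested.

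**Figure D5:**
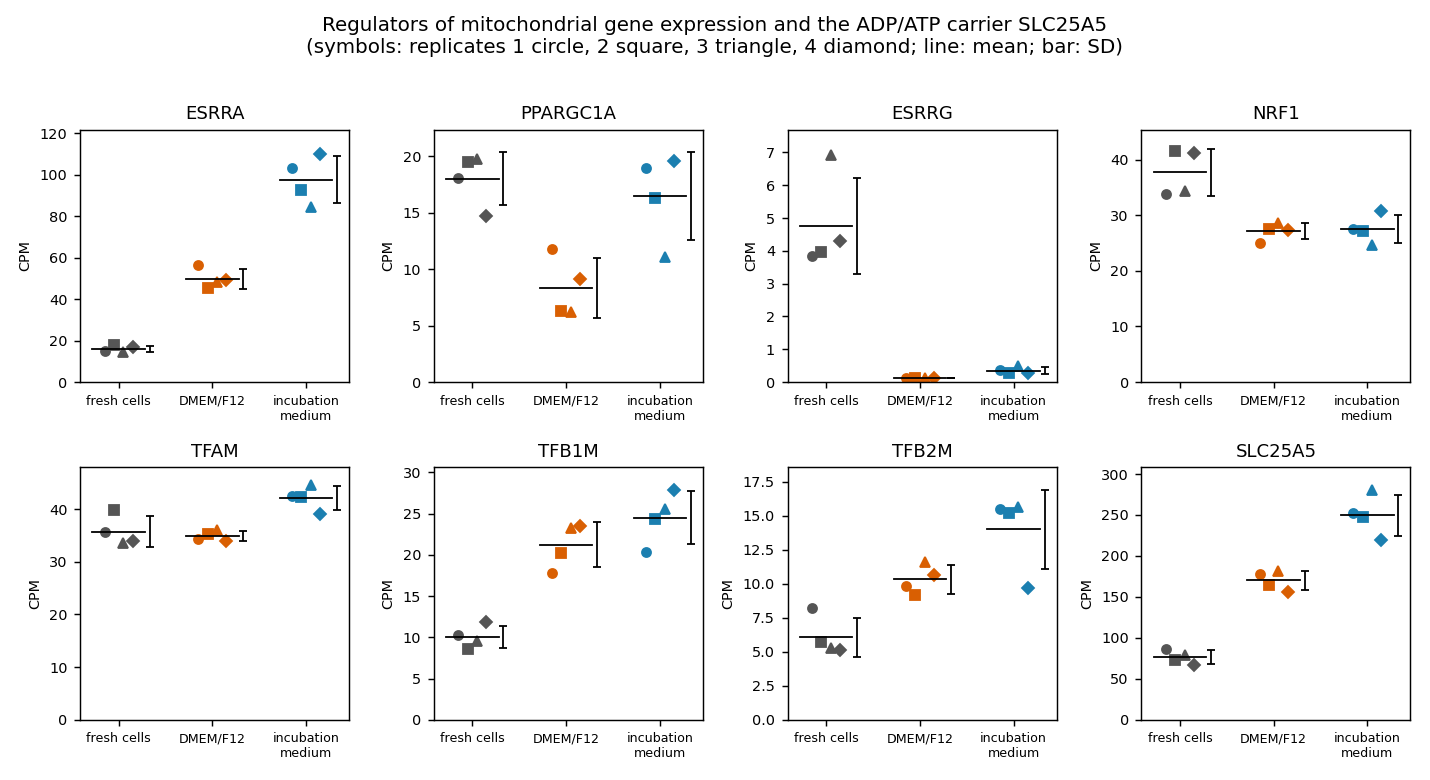
CPM in each library (symbols mark replicates 1 to 4), with the group mean (line) and SD (bar, n = 4), for 7 regulators and the ADP/ATP carrier SLC25A5; the vertical axes start at 0 and differ in scale. ESRRA rises from 16 CPM in fresh cells through 49.7 to 97.5 CPM on average, whereas PPARGC1A dips in DMEM/F12 and ESRRG is near 0 in both media.

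The genes outside the set whose pattern was most like it were found by Pearson correlation, over the 12 libraries, with the mean standardised log2 CPM of the 68 tested subunits and cytochrome c. As the 12 libraries fall into 3 groups, these values describe the group pattern and carry no p. Among the closest were UGGT1, a checker of glycoprotein folding in the endoplasmic reticulum (r = 0.991), AHCY, which breaks down S-adenosylhomocysteine (0.987), SAMM50, which inserts proteins in the outer mitochondrial membrane (0.986), and RCN1, a calcium-binding protein of the endoplasmic reticulum (0.985). SAMM50 averaged 29.6 ± 4.07, 63.9 ± 5.19 and 88.8 ± 8.11 CPM (SD, n = 4) and AHCY 26.4 ± 4.94, 108 ± 10.2 and 251 ± 33.9. Of the subunits themselves and the assembly factors, 47 followed that mean with r above 0.9, 60 with r above 0.8, and NDUFAF1, COX6B2, COX7A1 and COX18 ran against it. The mean was formed from the 68 subunits and cytochrome c themselves. A high r of these genes was therefore partly built in and is no support for a shared pattern.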

How the data were processed

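Per the file headers, the authors deposited for every gene an expected count and a CPM value in each library. Non-whole values made up 19.1 to 20.5% of nonzero counts, which means that some reads had been divided among features. Since raw counts had been foreseen, these estimates were rounded for the tests; the deposited CPM were not used. Libraries were made by oligo-dT priming, tagmentation and PCR, per the labels' protocols. The submitters' processing notes name fastp 0.24.0, STAR 2.7.11, SAMtools 1.22.1, and featureCounts and Subread 2.1.1; genome build and annotation are not given in the sources used here. Rows of 92 spike-in sequences (at most 0.000614% of the counts) were left out. No gene identifier matched the pig gene tables at hand (0 found), so the deposited symbols are used, and neither positions nor sequences are given.

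Genes were filtered by filterByExpr, scaled by TMM and tested with edgeR 4.0.16 (R 4.3.3) quasi-likelihood F-tests in 1 model of 3 group means over the 12 libraries. Benjamini-Hochberg adjustment ran over 14070 genes, with calls under 0.05. Log2 CPM used a prior count of 2. Library totals of 5045187 to 8603774 counts limit the precision of scarce genes, and intervals cover counting error only. The script was tested on simulated data. Alternatives were DESeq2 1.42.0, other scalings and filters (such as a mean of 10 counts), thinning, unrounded or whole counts, other samples in the fit, a replicate block and leaving out libraries. Fresh and spheroid libraries share replicate numbers: deviations of same-numbered libraries correlated at 0.23 to 0.28 (DMEM/F12 with fresh), 0.20 to 0.29 (incubation medium with fresh) and 0.39 to 0.52 (the media), and those of different numbers at -0.32 to 0.02. A pairing by number was thus read from these data, not from the labels. It entered only the replicate block. The main model, and every p-value printed without mention of the block, left the pairing out.

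Genes named in each comparison were those with the 5 largest called changes upward and downward (mean of at least 10 CPM, no overlap), the 2 most abundant of each of 9 role classes, and paralog sets, CYCS and ATP5IF1; others were named after their values were seen. The genes and lists were chosen with earlier results of these data known.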

Additional observations from a re-analysis of the deposited data

Results flagged for a closer look

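In 105 groups of 4 libraries (35 named genes in 3 groups), 5 values stood apart from the other 3 of their group by Dixon's test of the gap over the range. The test used log2 CPM, whereas CPM are printed here. Chance alone sets apart about 1 in 20 groups. NDUFS8 was at 77.9 CPM in DMEM/F12 replicate 3, with the others at 62.4 to 63.8, and UQCR11 was at 82.6 CPM in the same library, with the others at 68.5 to 70.7. COX7B was at 200 CPM in fresh cell replicate 1, with the others at 161 to 166. NDUFC2 was at 208 CPM in incubation medium replicate 4, with the others at 233 to 236. COX6B2 was at 0.36 CPM in DMEM/F12 replicate 4, with the others at 0.926 to 1.05, which rests on 3 counts against 7 to 9.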

How the results depend on the processing

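Of the alternatives run for the named genes, 2237 values kept direction and side of the threshold, 46 lost a call, 26 gained one and 21 turned in sign; of those for the counts and medians, 202 stayed near the main value and 11 moved away. With only the 21 genes whose counts were whole in all libraries, which follows from fewer genes, 15 rose and 2 fell in DMEM/F12, 17 rose and 2 fell in incubation medium and 10 were higher between the media. With no filter on low counts 3 genes fell in DMEM/F12 (COX7B and COX18 were lost), and with thinned counts 2 fell in incubation medium (COX18 was lost and COX6B2 not tested). Library totals in place of TMM gave a DMEM/F12 median of 0.51, a median of 0.15 and 13 genes higher between the media, and moved the median of all genes by -0.10 there; a threshold of 0.01 gave 12. Leaving out 1 library gave 50 to 56 genes higher and 4 to 5 lower in DMEM/F12, 66 to 69 and 3 to 4 in incubation medium, and 18 to 33 and 0 between the media, with medians of 0.42 to 0.49, 0.66 to 0.78 and 0.23 to 0.28. The replicate block gave 56, 68 and 43 genes higher and 5, 4 and 0 lower; beyond the calls named above it changed none of these genes. Signs turned only for uncalled differences: UQCR11 from DMEM/F12 to fresh cells was 0.01 with library totals and with no filter. Between the media, library totals gave NDUFAB1 -0.07 and COX4I1 -0.06, thinning gave COX18 0.08, COX6A1 0.02 and ATP5IF1 0.02, and leaving out 1 library gave ranges of 0.00 to 0.04 for NDUFAB1, 0.00 to 0.09 for COX4I1, -0.34 to 0.05 for COX7A1, -0.10 to 0.08 for COX18, -0.06 to 0.05 for COX6A1 and -0.09 to 0.05 for ATP5IF1; the cause was not tested. Depth limits COX6B2, COX10, COX18 and NDUFAF4, and shared reads limit the genes with counts not whole in 10 or 11 libraries (CYCS, UQCR11, UQCRH, NDUFS7, NDUFV2, NDUFB6 and ATP5MG).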
